A study of Mus musculus with 6 samples.

Results

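miR-9, miR-124 and miR-128 are miRNAs best known from neurons and their progenitors, and they were followed here in mouse nephron progenitor cells at 2 stages. Members were taken by name from the deposited table, as mmu-miR-9-5p and mmu-miR-9-3p, the arms of miR-9, with mmu-miR-124-3p and mmu-miR-128-3p, which makes 4 of the 1034 distinct mature miRNAs it holds. Where a miRNA has several genomic copies, its value is that of the copy whose row holds most signal. The 4 members were picked with their difference between the stages already known, so that difference is described below and carries no test.

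Nephron progenitors are the self-renewing cap cells of the fetal kidney from which nephrons form. CD1 mouse litters were collected at the embryonic stage E14.5 or on the day of birth (P0), and neither stage carried a genetic change or a drug in the labels. Each of the 6 libraries, 3 per stage, came from up to 24 kidneys of a litter, digested for 15 min with collagenase A and pancreatin, from which cells were selected on magnetic beads carrying an antibody to the integrin Itga8. Bead selection of a pool does not yield a pure cell type, and protein-coding progenitor markers were not analysed here, so the labelled cell type could not be checked against its defining genes.

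A miRNA is cut from a hairpin precursor, and one of its arms, 5p or 3p, is usually kept in the silencing complex, where bases 2 to 8 (the seed) pair with target messenger RNAs. miR-9 is expressed in neural progenitors and acts there on Notch and REST pathway genes, miR-124 is the most abundant miRNA of mature neurons and represses non-neuronal transcripts, and miR-128 is enriched in brain, where it affects neuronal excitability. miR-9 and miR-128 are also found outside the nervous system, whereas miR-124 is close to a defining neuronal marker.

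The mature sequences show that miR-9-5p, miR-9-3p and miR-128-3p have different seeds, and that miR-128-3p carries a heptamer also found, shifted by 1 base, in the miR-27 family. Capitals mark the seed, bases 2 to 8, and in miR-27a-3p and miR-27b-3p they mark the same 7 letters at bases 3 to 9.
miR-9-5p: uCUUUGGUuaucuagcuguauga
miR-9-3p: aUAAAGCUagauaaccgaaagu
miR-128-3p: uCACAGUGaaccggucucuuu
miR-27a-3p: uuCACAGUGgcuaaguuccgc
miR-27b-3p: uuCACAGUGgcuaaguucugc
Sequences are from RefSeq (GRCm38.p6), where 885 of the 1034 miRNAs were matched by name. No other miRNA with a sequence there had the same bases 2 to 8 as either arm of miR-9.

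miR-9 is encoded by 3 hairpins and miR-128 by 2, and the hairpins are shown because the members' arms (both arms of miR-9, the 3p arm of miR-128) are identical between copies while the bases around them are not. The 5p arms of the miR-128 hairpins differ. Capitals mark the mature arms, 5′ arm first.
Mir9-2, chr13:83738814-83738885, plus strand: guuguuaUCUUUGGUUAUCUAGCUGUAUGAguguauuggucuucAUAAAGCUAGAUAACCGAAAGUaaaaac
Mir9-1, chr3:88215598-88215686, plus strand: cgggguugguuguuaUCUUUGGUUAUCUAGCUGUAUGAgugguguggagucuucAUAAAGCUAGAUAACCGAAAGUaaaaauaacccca
Mir9-3, chr7:79505264-79505353, plus strand: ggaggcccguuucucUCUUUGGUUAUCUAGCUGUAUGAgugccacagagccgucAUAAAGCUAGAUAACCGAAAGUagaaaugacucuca
Mir128-1, chr1:128202361-128202430, plus strand: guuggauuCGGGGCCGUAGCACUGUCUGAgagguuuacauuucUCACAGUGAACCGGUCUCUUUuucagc
Mir128-2, chr9:112118636-112118711, minus strand: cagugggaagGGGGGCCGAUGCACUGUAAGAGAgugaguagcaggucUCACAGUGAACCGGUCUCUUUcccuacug
In GENCODE M21, Mir9-2 lies in an exon of the lincRNA C130071C03Rik, Mir9-1 in an intron of the lincRNA Gm3764 and Mir9-3 in an intron of its host lincRNA Mir9-3hg. Mir128-1 lies in an intron of R3hdm1 and Mir128-2 in an intron of Arpp21, both protein-coding. The only row for miR-124-3p is at chr14:64590709-64590728 on the plus strand, in Mir124a-1 within an exon of Mir124a-1hg.

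Levels are in TPM, which here are reads divided by the row's length and scaled to the library's total. The libraries held 2649506 to 34934526 reads, with E14.5 replicates 1 and 3 the smallest. P0 replicate 1 stood apart from the other P0 libraries, with a mean correlation over 670 miRNAs of 0.908 with them and 0.948 with the E14.5 libraries, so member values are also given without it. The median of those 670 miRNAs was itself 1.20 lower at P0 on the log2(TPM + 1) scale (log2 difference -1.20), and it was -0.17 when reads were instead scaled by median-of-ratios size factors (called ratio-scaled from here on), so each member is also set against that median. In bulk RNA of this kind, fewer cells of a type and less RNA per cell cannot be told apart.

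miR-9-5p, the arm that is usually the more abundant product of the hairpin, ranked 70, 160 and 109 among the miRNAs with a read in E14.5 replicates 1 to 3, and 175, 199 and 126 in the P0 libraries. Its levels at E14.5 were 1573, 242 and 740 TPM in replicates 1 to 3, from 4352, 5965 and 3958 reads. At P0 they were 124, 53.8 and 151 TPM, from 4518, 1253 and 3396 reads. Every P0 library was below every E14.5 library, but the E14.5 libraries themselves spanned a wider range than the gap between the stages. The stage means were 851 ± 673 and 110 ± 50.1 TPM (SD, n = 3 each), and the log2 difference was -2.70 with a standard error of 0.71. It was -2.85 (SE 0.67) without P0 replicate 1.

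Ratio-scaled, the same reads gave miR-9-5p levels of 1037, 165 and 428 at E14.5 and 140, 104 and 266 at P0, in size-factor units. The stages then overlapped, because P0 replicate 3 lay above E14.5 replicate 2. The log2 difference was -1.41 (SE 0.67) on that scale. Against the median of all tested miRNAs, miR-9-5p was 1.50 lower in TPM (difference from the median -1.50) and -1.24 ratio-scaled. Of 670 miRNAs, 91 (13.6%) had a lower log2 difference than miR-9-5p in TPM, and 16.4% did on the ratio-scaled values.

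miR-9-3p, the partner arm with a seed of its own, stood lowest at P0 of the 3 members that were expressed. Its E14.5 levels were 209, 32.0 and 129 TPM (552, 754 and 660 reads). Its P0 levels were 14.52, 1.49 and 0.931 TPM, from 505, 33 and 20 reads. The P0 libraries were all below the E14.5 libraries under both scalings, and P0 replicates 2 and 3 were far below replicate 1. Exact Poisson 95% intervals for the counts of 33 and 20 were 22.7 to 46.3 and 12.2 to 30.9 reads, which cover counting error only. The means were 123 ± 88.6 and 5.65 ± 7.69 TPM, with a log2 difference of -4.52 (SE 0.88).

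Only 4 of the 670 miRNAs (0.597%) had a lower log2 difference than miR-9-3p in TPM, and 3 (0.448%) did on the ratio-scaled values, where its own was -3.47 (SE 0.86). Relative to the median of all tested miRNAs it was -3.33 in TPM and -3.30 ratio-scaled. Leaving out P0 replicate 1 moved the log2 difference to -5.46 (SE 0.70).

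miR-124-3p, the neuronal marker of the group, was at or near 0. It had 0, 4 and 0 reads at E14.5 and 9, 0 and 0 reads at P0, which is 0.188 TPM in E14.5 replicate 2 and 0.286 TPM in P0 replicate 1. Summed over libraries this was 4 of 31469257 reads at E14.5 (exact Poisson 95% interval of the count 1.09 to 10.2) and 9 of 78706983 at P0 (4.12 to 17.1). In the 4 libraries without a read, a count of 0 allows up to 3 reads as a one-sided 95% limit, which is 1.26 TPM in replicate 1 and 0.649 in replicate 3 of E14.5, and 0.149 and 0.154 in replicates 2 and 3 of P0. The highest miR-124-3p level in any library was below the lowest miR-9-5p level at either stage. miR-124-3p did not pass the filter of a mean of 1 TPM, and no difference between the stages is given for it. These values are those of the 1 row held for miR-124-3p, at Mir124a-1. Whether its reads were assigned to other positions was not tested. With that limit, the label of a neural group rests on miR-9 and miR-128 in these cells.

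miR-128-3p was abundant in the E14.5 libraries at 436, 774 and 589 TPM, from 1096, 17368 and 2865 reads. At P0 it stood at 596, 107 and 93.5 TPM, from 19736, 2257 and 1914 reads. P0 replicate 1 lay within the E14.5 range and the other P0 libraries lay below it, so the stages overlapped. The means were 599 ± 169 and 265 ± 286 TPM and the log2 difference was -1.68 (SE 0.70). It was -2.53 (SE 0.34) without P0 replicate 1 and -0.39 (SE 0.58) ratio-scaled. Of the 670 miRNAs, 226 (33.7%) had a lower log2 difference in TPM, and miR-128-3p was -0.48 from the median in TPM and -0.22 ratio-scaled. Without P0 replicate 1 it was -1.14 from the median, and 24.4% of the 689 miRNAs then tested had a lower value.

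**Figure D1:**
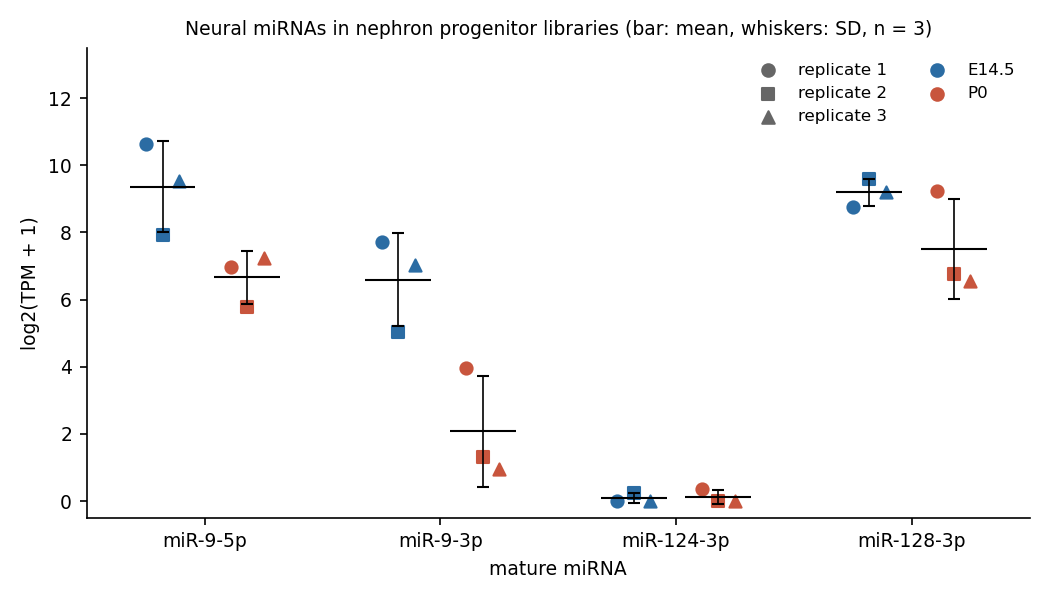
Level of each member, as log2(TPM + 1), in the 3 E14.5 and 3 P0 libraries (points, shaped by replicate), with the mean (bar) and SD (whiskers) of each stage. miR-9-5p and miR-9-3p lie lower in each P0 library than in any E14.5 library, miR-124-3p lies at or near 0 throughout, and P0 replicate 1 lies among the E14.5 libraries for miR-128-3p.

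In order of mean level at E14.5, miR-9-5p came before miR-128-3p, then miR-9-3p, then miR-124-3p. The ranges of miR-9-5p and miR-128-3p overlapped, and 2 of 3 libraries had them in that order. At P0 miR-128-3p came before miR-9-5p, again with overlapping ranges and with 2 of 3 libraries in that order. miR-9-3p and miR-124-3p were below them, and apart from each other, at both stages.

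The arms of miR-9 did not keep a constant ratio, and this comparison is free of scaling because both arms come from the same library. The 5p to 3p ratio of TPM was 7.53, 7.55 and 5.72 at E14.5 and 8.54, 36.2 and 162 at P0. All P0 libraries lay above the E14.5 libraries, but P0 replicate 1 only just so, and the spread within P0 was larger than the whole E14.5 range. As a share of the reads of both arms, miR-9-3p made up 11.3% (Wilson 95% interval 10.4 to 12.2), 11.2% (10.5 to 12.0) and 14.3% (13.3 to 15.3) at E14.5. The P0 shares were 10.1% (9.25 to 10.9) in replicate 1, 2.57% (1.83 to 3.58) in replicate 2 and 0.585% (0.379 to 0.903) in replicate 3. The interval of P0 replicate 1 thus overlapped those of E14.5 replicates 1 and 2, and those of the other P0 libraries did not.

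On the log2 scale the mean 5p to 3p ratio was 2.78 ± 0.23 over the E14.5 libraries and 5.20 ± 2.12 in the P0 libraries (SD, n = 3 each), a difference of 2.42. Without P0 replicate 1 the difference was 3.48, and without P0 replicate 3 it was 1.36. A total of 114 miRNA names had both arms at a mean of 10 TPM or more and above 0 in each library. Their median shift was -0.28, with quartiles of -1.17 and 0.94, and 12 of them shifted further toward the 5p arm than miR-9 did.

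**Figure D2:**
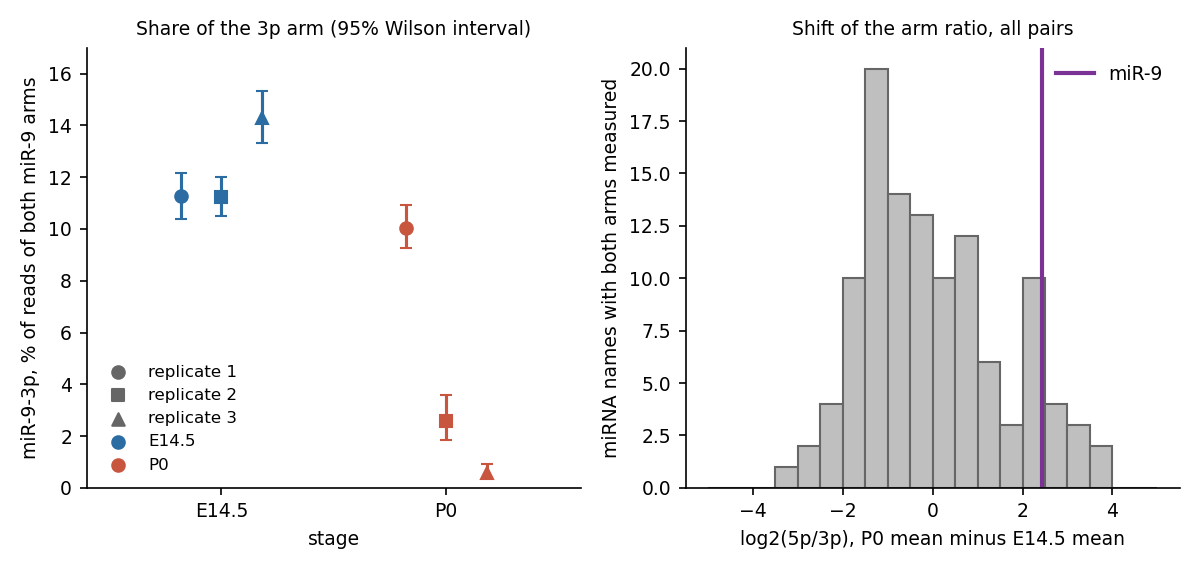
Left, share of miR-9-3p among the reads of both miR-9 arms (%) in each library, with 95% Wilson intervals. Right, number of miRNA names by their shift in log2(5p/3p) between the stage means, with miR-9 marked at 2.42. The share is 10.1% to 14.3% in the E14.5 libraries and P0 replicate 1 and below 4% in P0 replicates 2 and 3, and most names shift less than miR-9.

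The copies of each member were counted in separate rows, and the rows of miR-9-5p held nearly the same reads. The Mir9-1 row carried 96.3% ± 1.38 of the reads of the Mir9-2 row at E14.5 and 99.3% ± 0.318 at P0, and the Mir9-3 row 97.3% ± 1.19 and 100.2% ± 0.260 (SD, n = 3). The 3 rows therefore cannot be read as 3 measurements of miR-9-5p, and which hairpin the mature miRNA came from was not resolved. Counting positions from the first mature base, the hairpins first differ downstream of miR-9-5p at U27G (Mir9-2 to Mir9-1) and U27C (Mir9-2 to Mir9-3).

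The miR-9-3p rows were less alike. The Mir9-1 row had 74.8%, 87.5% and 74.8% of the Mir9-2 reads at E14.5, and 99.6%, 100% and 100% at P0. The Mir9-3 row had 23, 2 and 20 reads at E14.5 and 20, 0 and 0 at P0, at most 4.17% of the Mir9-2 row. Downstream of miR-9-3p, Mir9-3 shares 1 base with Mir9-2 and then departs from it at A24G, and Mir9-1 shares 5 bases and departs at C28U.

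The 2 rows of miR-128-3p separated the stages more sharply than the level did. The Mir128-2 row, in Arpp21, carried 87.8%, 88.6% and 89.1% of the reads of the Mir128-1 row at E14.5 and 76.8%, 74.4% and 75.2% at P0. Here P0 replicate 1 stood with the other P0 libraries. The means were 88.5% ± 0.672 and 75.5% ± 1.23 (SD, n = 3), and the hairpins differ at the base right after the mature arm, U22C. Among 54 further-copy rows of 37 miRNAs with at least 20 reads in each library at the main row, 13 had stages that did not overlap in this share. Of these, 5 shifted by as many percentage points as the miR-128-3p row or more, a count that includes that row and the Mir9-1 row of miR-9-3p. How reads that match several copies were assigned was not given in the sources used here, and its part in these shares was not tested.

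**Figure D3:**
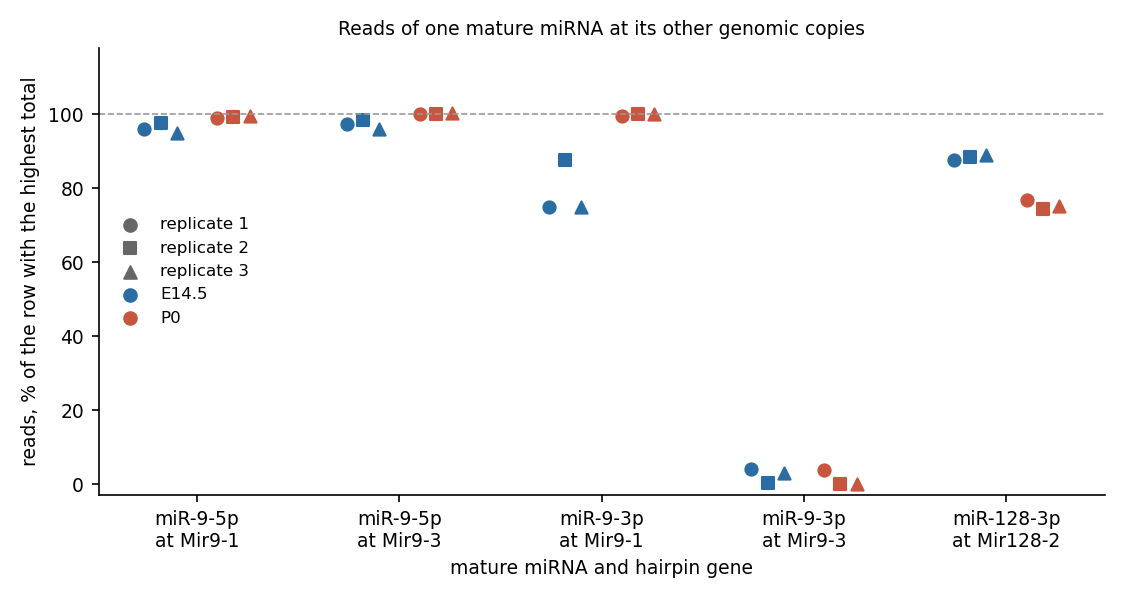
Reads at each further genomic copy, in % of the row with the highest total for the same mature miRNA, for the 6 libraries by stage and replicate. The miR-9-5p rows lie near 100%, the Mir9-3 row of miR-9-3p near 0%, and the Mir128-2 row of miR-128-3p at 87.8% to 89.1% at E14.5 and 74.4% to 76.8% at P0.

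miR-128-1-5p, the partner arm of miR-128-3p from Mir128-1, was scarce, with 1.59, 3.03 and 2.47 TPM at E14.5 and 1.69, 2.69 and 0.733 TPM at P0. Its stages overlapped (log2 difference -0.36, limma adjusted p = 0.601 over all 670 miRNAs), and ratio-scaled the difference was 0.48 (adjusted p = 0.565), so its direction was not fixed. miR-9b-5p, annotated on the strand opposite a miR-9 hairpin, had 3, 2 and 1 reads at E14.5 and 6, 1 and 0 at P0. miR-124-5p and miR-128-2-5p were looked up and had no row under these names in the deposited table.

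The miR-27 family, which carries the miR-128-3p heptamer at a shifted position, was far more abundant in sum than miR-128-3p. miR-27b-3p had 20087, 15317 and 14570 TPM at E14.5 and 24560, 13389 and 11688 TPM at P0. The ranges of the stages overlapped, with a log2 difference of -0.07 (limma adjusted p = 0.911) and of 1.22 ratio-scaled (adjusted p = 0.0750). miR-27a-3p had 804, 439 and 847 TPM at E14.5 and 708, 190.01 and 228 TPM at P0, with a log2 difference of -1.09 (adjusted p = 0.164) in TPM and 0.20 ratio-scaled.

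Whether other miRNAs known from the nervous system were also lower at P0 was asked of a list of 68 names that leaves out the 4 members. The table held 56 of them, 41 passed the filter of a mean of 1 TPM, and 15 did not. Of the 41, 21 fell at P0 and 0 rose (limma on log2(TPM + 1), adjusted p under 0.05), which is 51.2%. The list, like the members, was chosen with earlier results of these data known. Several of the 21 are arms of a shared hairpin or transcript, so they are not 21 separate loci. The background was 34.2% called among all 670 miRNAs, 32.8% of them lower and 1.34% higher. The median log2 difference of the 41 was -1.73 (quartiles -2.49 and -1.18) beside -1.20 (-2.07 and -0.31) for all 670. In 24 of the 41 (58.5%) every P0 library was below every E14.5 library, against 46.4% of all tested miRNAs. The stages did not overlap, in either direction, in 25 of the 41 and in 49.6% of all. Ratio-scaled, every P0 library was below every E14.5 library in 15 of the 41 (36.6%), against 19.7% of all, and the stages did not overlap in 18 of the 41 and in 35.4% of all.

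The count depended on scaling, although none of the 21 changed sign with it. Ratio-scaled, 5 of the 41 were called, 4 lower and 1 higher, beside a background of 10.9% (5.22% lower and 5.67% higher), and the median was -0.90 beside -0.17 for all. Without P0 replicate 1, 29 were called, 28 lower and 1 higher, beside a background of 61.0%. Leaving out one of the E14.5 libraries gave 13, 13 and 11 called (replicates 1 to 3), beside backgrounds of 16.8%, 23.9% and 10.8%. Leaving out P0 replicate 2 or 3 gave 12 each time, beside 16.9% and 19.9%.

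**Figure D4:**
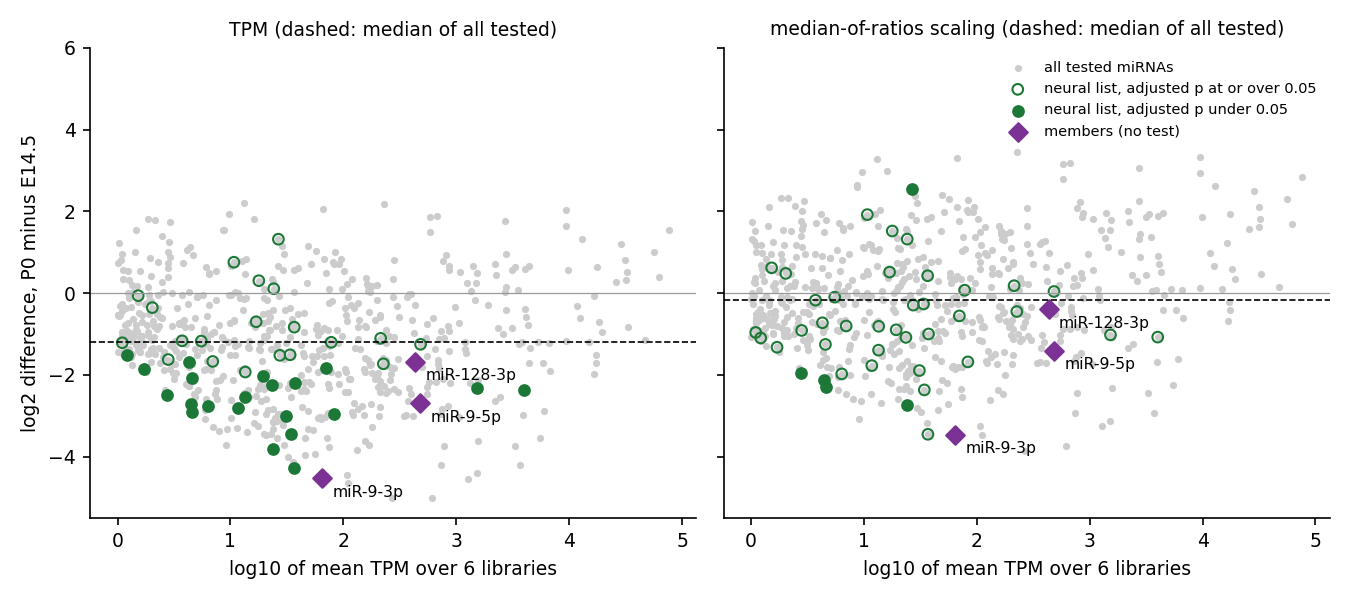
Log2 difference, P0 minus E14.5, against log10 mean TPM for all 670 tested miRNAs (grey), the 41 of the neural list (green, filled where the adjusted p is under 0.05) and the 3 members that passed the filter (violet, not tested), in TPM (left) and with median-of-ratios scaling (right). The dashed median lies at -1.20 on the left and -0.17 on the right, and the filled green points go from 21 to 5.

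Of the list, miR-212-3p was the one whose call held in all 15 alternatives. It is processed, like miR-132, from a primary transcript induced by CREB in active neurons. Its levels were 43.9, 49.7 and 43.1 TPM at E14.5 and 3.08, 1.17 and 3.03 TPM at P0, so the stages were well apart and P0 replicate 1 stood with the other P0 libraries. The log2 difference was -3.82 (SE 0.57, limma adjusted p = 0.00332), and -2.73 ratio-scaled (adjusted p = 0.0318).

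The other arms of that transcript were not tested against it. miR-212-5p fell by 2.54 (limma adjusted p = 0.00658) and miR-132-5p by 2.20 (adjusted p = 0.0472) on the log2 scale, and neither was called ratio-scaled. The call of miR-212-5p held in 11 of 15 alternatives, and its stages did not overlap on either scale. The stages overlapped for miR-132-5p, with 40.1 TPM in P0 replicate 1 against 38.2 in E14.5 replicate 2. Its call held in 4 of 15 alternatives, and its log2 difference was -3.09 without P0 replicate 1 and -1.40 without P0 replicate 3. miR-132-3p had 583, 683 and 673 TPM at E14.5 and 115, 330 and 515 TPM at P0. It had a log2 difference of -1.26 in TPM (adjusted p = 0.114) and of 0.04 ratio-scaled, so its direction was not fixed. Without P0 replicate 1 it was -0.64 (limma adjusted p = 0.0922).

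The other 3 that fell both in TPM and ratio-scaled were rare miRNAs. miR-137-3p, known for roles in synapse development, went from 7.23, 7.21 and 12.0 TPM to 1.10, 0 and 0 TPM, from 20, 178 and 64 reads to 40, 0 and 0. Its log2 difference was -2.90 (limma adjusted p = 0.00480), and -2.30 ratio-scaled (adjusted p = 0.0335). miR-1298-5p, from an intron of the serotonin receptor gene Htr2c, had 28, 231 and 25 reads at E14.5 and 54, 0 and 0 at P0 (log2 difference -2.73, limma adjusted p = 0.00658). miR-551b-3p had 11, 75 and 42 reads at E14.5 and 9, 0 and 0 at P0 (log2 difference -2.49, limma adjusted p = 0.00631). In each of the 3 the reads at P0 came from replicate 1 alone.

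The most abundant miRNA of the list was miR-218-5p, encoded in the axon guidance genes Slit2 and Slit3 and enriched in motor neurons. It had 6816, 5599 and 7120 TPM at E14.5 and 2834, 834 and 824 TPM at P0. The stages did not overlap in TPM, with a log2 difference of -2.37 (SE 0.55, limma adjusted p = 0.00811); ratio-scaled it was -1.08 (adjusted p = 0.118). miR-7a-5p, which is bound by the circular RNA Cdr1as in brain and is high in endocrine cells, had 2363, 2613 and 2382 TPM at E14.5 and 1180, 345 and 289 TPM at P0. Its log2 difference was -2.32 (SE 0.58, limma adjusted p = 0.0113) in TPM, and -1.02 (adjusted p = 0.149) ratio-scaled. The call of miR-218-5p held in 10 of 15 alternatives and that of miR-7a-5p in 8 of 15. On leaving out 1 library the log2 difference lay between -2.96 (without P0 replicate 1) and -2.07 (without P0 replicate 3) for miR-218-5p, and between -2.95 and -1.94, without the same libraries, for miR-7a-5p.

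Further arms fell in TPM and were not called ratio-scaled. From Mir384, miR-384-3p fell by 4.27 and miR-384-5p by 3.46 on the log2 scale, with limma adjusted p of 0.00736 and 0.00879 in TPM, and of 0.0582 and 0.0741 ratio-scaled. Leaving out 1 library left both calls in TPM, with values from -5.67 (without P0 replicate 1) to -3.39 (without P0 replicate 2) for miR-384-3p and from -4.51 to -2.76, without the same libraries, for miR-384-5p. miR-384-3p had 59.8, 86.9 and 51.7 TPM at E14.5 and 22.5, 0 and 0.652 TPM at P0, so replicate 1 again held nearly all of the P0 signal. miR-7a-1-3p fell by 3.00 (adjusted p = 0.0191), miR-218-2-3p by 2.07 (adjusted p = 0.0217) and miR-218-1-3p by 2.04 (adjusted p = 0.0487). Ratio-scaled, their limma adjusted p were 0.133, 0.160 and 0.379. The call of miR-7a-1-3p held in 7 of 15 alternatives, with log2 differences of -4.13 without P0 replicate 1 and -2.21 without P0 replicate 2, and that of miR-218-2-3p in 5 of 14. The stages overlapped for miR-218-1-3p, with 20.1 TPM in P0 replicate 1 against 18.99 in E14.5 replicate 3, and its call held in 2 of 15 alternatives. On leaving out 1 library its log2 difference lay between -2.83 (without P0 replicate 1) and -1.43.

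miR-138-5p, a regulator of dendritic spine size, fell by 2.82 (limma adjusted p = 0.00605), miR-139-5p by 2.95 (0.00510) and miR-488-3p by 2.76 (0.00840) on the log2 scale. miR-219a-5p, which promotes oligodendrocyte differentiation, fell by 2.25 (0.0354), with stages that overlapped (20.1 TPM in P0 replicate 1, 19.9 in E14.5 replicate 1). The remaining 4 calls were miR-1264-3p (fell by 1.85), miR-330-5p (by 1.83), miR-346-5p (by 1.70) and miR-153-3p (by 1.52), with limma adjusted p between 0.0156 and 0.0403. None of these 8 passed the threshold ratio-scaled. The calls of miR-138-5p and miR-139-5p held in 11 of 15 alternatives and that of miR-488-3p in 11 of 14. Leaving out 1 library moved miR-219a-5p from -2.998 (without P0 replicate 1) to -1.74 (without P0 replicate 2). The other calls were mostly lost: miR-219a-5p and miR-330-5p held in 6 of 15, miR-1264-3p in 6 of 14, miR-153-3p in 6 of 13 and miR-346-5p in 3 of 14. miR-219a-5p, miR-330-5p and miR-346-5p lost theirs on leaving out any one library other than P0 replicate 1.

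Of the 41, 4 were higher at P0 by the mean of log2(TPM + 1), and none of the 4 passed the test on that scale. miR-129-5p (log2 difference 0.75), miR-383-5p (0.30) and miR-338-3p (0.11) had stages that overlapped in TPM. Ratio-scaled, the same differences were 1.92, 1.52 and 1.32, with limma adjusted p of 0.0693, 0.102 and 0.234. On that scale the stages of miR-129-5p and of miR-383-5p did not overlap. miR-135a-2-3p had 8.75, 17.95 and 19.3 TPM at E14.5 and 42.5, 34.7 and 36.4 TPM at P0, every P0 library above every E14.5 library. Its log2 difference was 1.32 in TPM (limma adjusted p = 0.0880) and 2.55 ratio-scaled, where it passed the test (adjusted p = 0.0318). miR-135a-5p had 285, 202 and 310.04 TPM at E14.5 and 498, 38.2 and 24.2 TPM at P0, with P0 replicate 1 the highest library. Its log2 difference was -1.73 (limma adjusted p = 0.147), -0.45 ratio-scaled, and -3.06 without P0 replicate 1 (adjusted p = 6.22e-05). miR-149-5p had 250.06, 347 and 249 TPM at E14.5 and 251, 114 and 74.1 TPM at P0, where the log2 difference was -1.11 (adjusted p = 0.147). It was 0.18 ratio-scaled and -1.59 without P0 replicate 1 (limma adjusted p = 0.00252).

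In the authors' deposited table, which used the same libraries, 7 of the 56 listed miRNAs were lower and 1 higher at an adjusted p under 0.05, beside 10.4% of all 1034 called (5.32% lower and 5.13% higher). The 7 lower in the authors' deposited table were miR-384-3p, miR-384-5p, miR-7a-1-3p, miR-212-3p, miR-137-3p, miR-1298-5p and miR-551b-3p, and the 1 higher was miR-135a-2-3p. For the members, the authors' deposited table gave log2 fold changes of -0.70 (SE 0.72) for miR-9-5p, -3.46 (SE 0.93) for miR-9-3p and -0.81 (SE 0.61) for miR-128-3p.

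Across the 6 libraries, the miRNAs whose log2(TPM + 1) profile was most like that of miR-9-5p were miR-141-3p (Pearson r 0.98), miR-653-5p (0.98), miR-26b-3p (0.97), miR-30c-2-3p (0.97) and miR-200b-5p (0.97), of 429 compared. miR-141-3p and miR-200b-5p belong to the miR-200 clusters, which mark epithelium. For miR-128-3p the most similar were miR-130b-3p (1.00), miR-10b-5p, miR-3068-3p, miR-130a-3p and miR-362-5p (0.99 each), with P0 replicate 1 among the E14.5 libraries in all of them. Between the members, r was 0.90 for the arms of miR-9, 0.53 for miR-9-5p with miR-128-3p and 0.80 for miR-9-3p with miR-128-3p. These are descriptions over 6 libraries that share stage, depth and scaling.

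Some markers of other cells were also lower at P0 in TPM, and others were not. The epithelial miR-200 list, with all 5 of its 5 members called lower at P0 beside a background of 32.8%, summed to 23183, 4122 and 14657 TPM at E14.5 and 1542, 500.2 and 872 TPM at P0. At E14.5 the libraries ranked in the same order for this sum as for miR-9-5p, with replicate 1 highest and replicate 2 lowest. At P0 the orders differed, since replicate 1 had the highest sum and replicate 3 the highest miR-9-5p. The endothelial list (2 of 2 lower) summed to 26608 to 44921 TPM at E14.5 and 5634 to 8158 at P0, and the stromal list (2 of 4 lower) to 21326 to 33937 and 7443 to 14270. The neuroendocrine marker miR-375-3p, called lower, was at 40.5, 16.1 and 65.4 TPM and at 0.316, 13.2 and 0.977 TPM.

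The erythroid list had 1 of 3 members lower, beside the background of 32.8%, and summed to 220.5 to 375 TPM at E14.5 and 103 to 189 at P0. Its members went different ways. miR-451a was called lower (log2 difference -2.70, limma adjusted p = 0.00605). miR-486a-5p was higher at P0 and not called (0.76, limma adjusted p = 0.363, and 2.04 ratio-scaled, adjusted p = 0.0846). In TPM, no member was called of the leukocyte list (0 of 4; 632 to 1202 and 454 to 629 TPM) or the myogenic list (0 of 3; 28.0 to 69.1 and 15.4 to 133 TPM). Ratio-scaled, fewer markers were called lower: 3 of 5 epithelial (miR-200a-3p, miR-200b-3p and miR-429-3p), 1 of 2 endothelial (miR-126a-5p) and none of the stromal, erythroid or neuroendocrine lists, beside a background of 5.22%. The leukocyte miR-223-3p was then called higher (log2 difference 1.64, limma adjusted p = 0.0407), and 7 of the 22 markers changed sign from lower to higher: 3 of the 4 leukocyte markers, the stromal miR-143-3p (0.09) and miR-199a-5p (0.04), the erythroid miR-144-3p and the myogenic miR-133a-3p. No miRNA of these lists was at 0 in every library. The part of these cells in the levels of miR-9 and miR-128 was not tested.

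**Figure D5:**
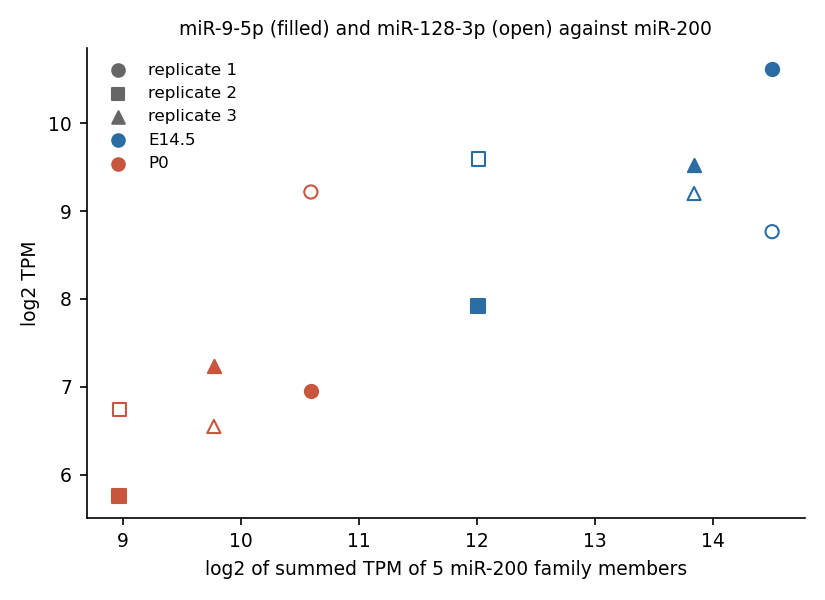
Log2 TPM of miR-9-5p (filled) and miR-128-3p (open) against log2 of the summed TPM of 5 miR-200 family members, for the 6 libraries. miR-9-5p is highest where the miR-200 sum is highest (E14.5 replicate 1, 23183 TPM) and lowest where it is lowest (P0 replicate 2, 500.2 TPM), while miR-128-3p is highest in E14.5 replicate 2.

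Base composition also moved with the difference between the stages. Over 582 of the 670 miRNAs (86.9%), GC content and the log2 difference had a Spearman rho of 0.38 in TPM and 0.35 ratio-scaled, so miRNAs poor in G and C tended to be lower at P0. miR-9-5p has a GC content of 34.8% and miR-9-3p of 31.8%, both under the median of 47.8%, and miR-128-3p has 47.6%. The median log2 difference of miRNAs within 5 percentage points of each was -2.11 (93 miRNAs), -2.15 (76) and -1.20 (224). Beside these, the members' own differences of -2.70, -4.52 and -1.68 were lower in each case, and the part of base composition in them was not tested.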

How the data were processed

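The authors deposited 1 table with a row per mature miRNA and genomic position and TPM values for 6 libraries. The submitters' processing notes name featureCounts, DESeq2 1.26.0 and the mm10 build, without their roles; the aligner, the treatment of molecular tags and of reads matching several copies were not given in the sources used here. The deposited TPM were whole multiples of a per-library step in 100% of values (tolerance 0.001 reads), so whole reads were recovered. Size factors (median of ratios, over 589 rows) applied to those reads matched their mean to the deposited baseMean, a normalised signal (largest relative difference 4.75e-15). The authors' log2 fold change with its SE, test score and p-value are per the file headers.

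The most abundant row stood for each of the 52 miRNAs that have several. Stages were compared with limma 3.58.1 (R 4.3.3; linear model with mean trend) on log2(TPM + 1), for 670 miRNAs averaging 1 TPM or more, with Benjamini-Hochberg adjustment over all of them. The scripts were tested on simulated data. Alternatives were limma-voom on the recovered reads, scaling by median of ratios or by upper quartile, no filter or 10 TPM, a pseudocount of 0.1, summed rows, a replicate block and leaving out each library. Replicates are litter pools. Members and lists were chosen with earlier results of these data known. Named were the members, their partner arms and seed relatives, every called miRNA of the neural list with its 5 most abundant, the 5 most similar profiles, and, after their values were seen, the 4 listed miRNAs higher at P0 and some markers. Intervals cover counting error only.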

Additional observations from a re-analysis of the deposited data

How the results depend on the processing

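The calls depended on the scaling or model and on single libraries, and the cause was not tested. In TPM, 229 of 670 miRNAs were called (220 lower, 9 higher); median-of-ratios scaling gave 73 (35 lower, 38 higher), upper-quartile scaling 34, limma-voom on recovered reads, which changes model and scaling together, 28, and leaving out 1 library 72 to 420. For the neural list, 21 called became 5, 3 and 2 in those fits. With a 10 TPM filter 11 of 26 (42.3%) were called, beside 173 of 432 miRNAs in all, so the list then stood near the background. On leaving out 1 library the list count was 11 to 29. It was 13 without E14.5 replicate 1 or 2 and 11 without E14.5 replicate 3. It was 29 without P0 replicate 1 and 12 without P0 replicate 2 or 3. No filter gave 22 of 56, beside 219 of 1034 miRNAs in all. A pseudocount of 0.1 gave 18 of 41, beside 201 of 670. Summed rows gave 20 of 41, beside 224 of 671. The log2 difference of miR-9-5p was -1.41, -1.58 and -1.36 in those 3 fits and -3.41 to -2.06 on leaving out 1 library, and that of miR-128-3p was -0.39, -0.56 and -0.39, and -2.53 to -1.20. miR-9-3p ranged from -5.46 to -3.96 on leaving out 1 library, and its arm log2 ratio difference from 1.36 to 3.48. Sign changes under median-of-ratios, limma-voom and block with median-of-ratios were to 0.037, 0.0032 and 0.037 for miR-132-3p and to 0.18, 0.17 and 0.18 for miR-149-5p, which was also 0.0082 under upper-quartile scaling. With median-of-ratios scaling 7 of the 41 listed miRNAs changed sign, the others being miR-128-1-5p (0.48), miR-135b-5p, miR-135b-3p, miR-139-3p and miR-330-3p, as did miR-27a-3p (0.20) and miR-27b-3p (1.22). Whether the replicate number pairs the samples was not settled. Same-numbered libraries correlated at 0.19, 0.18 and 0.04 in their deviations from the stage means. Differently numbered ones correlated at -0.18 to 0.08. A replicate block gave 247 miRNAs and 22 of the list, and with median-of-ratios scaling 77 and 6, with -1.41 for miR-9-5p and -0.39 for miR-128-3p. Depth limits the rare members: E14.5 replicate 1 holds 2649506 reads, so 3 reads of miR-124-3p are 1.26 TPM there.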
